A study of Mus musculus with 8 samples.

Results

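De novo fatty acid synthesis was followed through 10 genes in the livers of db/db male mice. The genes were chosen by function, as the enzymes that carry acetyl-CoA to palmitate, to stearate and to oleate, together with their accessory factor Thrsp. They are Acly, Acss2, Acaca, Acacb, Fasn, Me1, Elovl6, Scd1, Scd2 and Thrsp, 10 of the 21532 genes in the table of normalized read counts, and all 10 passed the filter on low counts. The db/db mouse lacks a working leptin receptor and becomes obese and diabetic. From 8 weeks of age, 4 mice received control and 4 received AF1 peptide at 5 mg/kg by retro-orbital injection, 2 times per week for 5 weeks. AF1 peptide is a synthetic peptide derived from estrogen receptor α (ERα) that carries a FITC-labelled TAT sequence for entry into cells. Both groups were male db/db mice, and no lean mice were analysed here, so every value describes diabetic liver. What the control injection held, and whether the mice were fed or fasted when the livers were taken, is not given in the sources used here. The comparison asks which liver transcripts differ when db/db mice receive the peptide.

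Cells make new fatty acids from cytosolic acetyl-CoA, which ACLY releases from citrate and ACSS2 makes from acetate. The acetyl-CoA carboxylases turn it into malonyl-CoA, fatty acid synthase (FASN) assembles palmitate with NADPH as the reductant, ELOVL6 lengthens palmitate to stearate, and the SCD desaturases place the first double bond. In liver these genes are classically induced together by insulin through SREBP-1c and by sugar through ChREBP, and they fall in fasting.

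One library per mouse was sequenced, and 23031880 to 45117528 reads per mouse were counted in genes. The library of AF1 peptide replicate 1 stood apart from the other 7. On the first principal component, which held 39.3% of the variance, it lay at 74.2 and the other mice between -21.8 and 2.33. Reads of the 13 mitochondrially encoded genes made up 20.8% of its total, while control mice had 22.4 to 34.3% and the 3 remaining treated mice 34.3 to 37.8%. The main values are therefore given with and without this mouse. Hepatocyte marker transcripts, 9 genes, were abundant in all 8 livers, with summed normalized counts of 2482380 to 2622650 in control and 1822520 to 2596270 in AF1 peptide-treated mice. These sums are mostly Alb, which had 1807970 to 1997670 counts in control and 1224160 to 1989760 in AF1 peptide-treated mice. Gene by gene, AF1 peptide replicate 1 was the lowest of the 8 mice in 4 of the 9 markers and the highest in 5.

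Of the 10 synthesis genes, Fasn was the 1 that was called lower in AF1 peptide-treated livers, and none was called higher (0 genes). A gene was called at an unadjusted limma p value under 0.05 with more than a 1.3-fold change, on the log2(normalized count + 1) scale. Over the 15989 genes tested, 304 (1.9%) were called lower and 286 (1.79%) higher. The log2 fold change was below 0 in 9 of the 10 synthesis genes, against 51.8% of all genes tested, and its median was -0.33 over the 10 and -0.01 over all. No gene of the liver had a Benjamini-Hochberg adjusted limma p value under 0.05 (0 genes, smallest 0.763), while 990 had an unadjusted p value under 0.05. edgeR gave such an adjusted value to 0 genes and DESeq2 to 3, none of them a synthesis gene (Nt5e, Phlda1 and Tbc1d8, named after their values were seen). Without AF1 peptide replicate 1, 3.07% of all genes were called lower and 2.86% higher. None of the 10 was then called (0 genes), 7 of 10 had a log2 fold change below 0, and the median was -0.15. Scaling all libraries to equal totals moved the median of all genes to -0.10. It called 602 genes lower and 122 higher, and 3 of the 10 genes lower (Fasn, Me1 and Acaca).

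**Figure D1:**
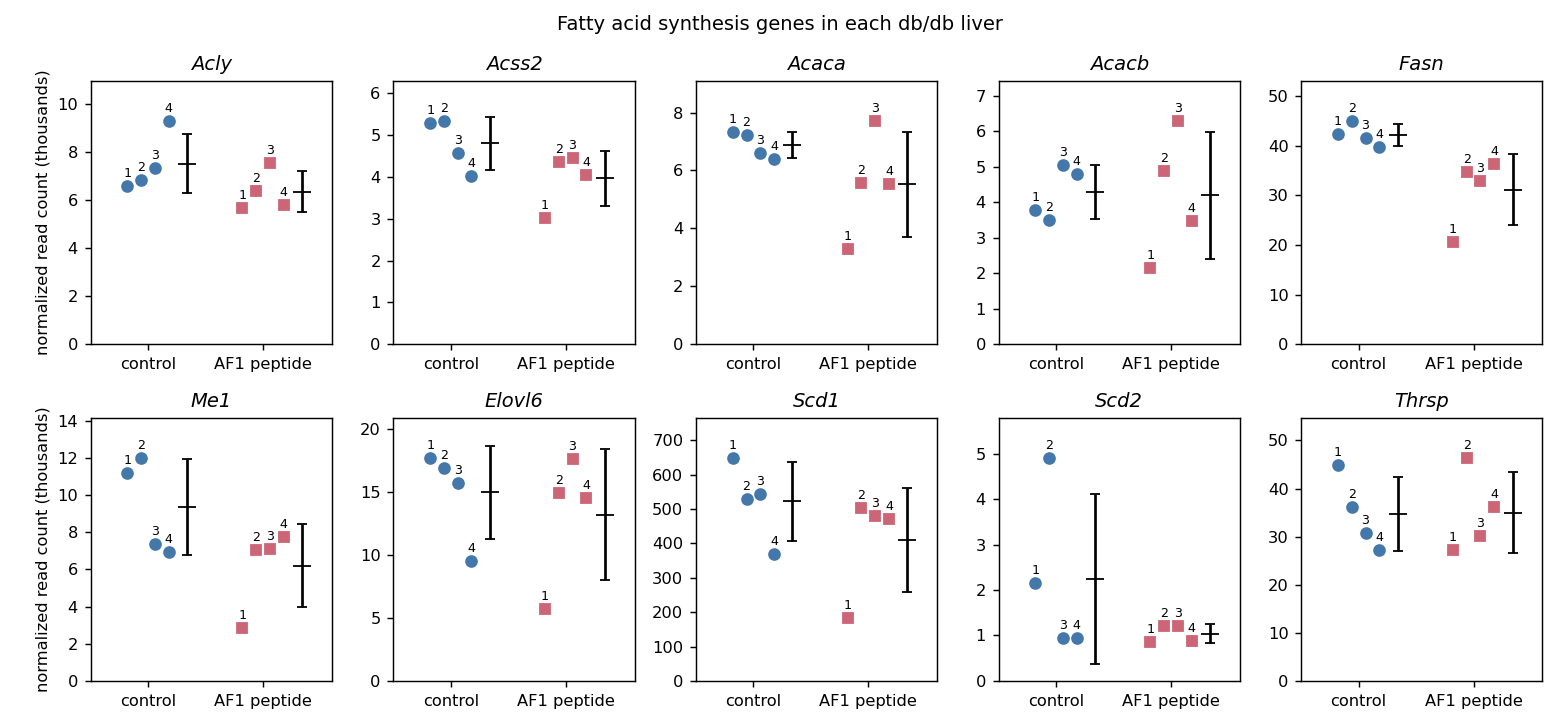
Normalized read counts (axis divided by 1000) of the 10 fatty acid synthesis genes in each mouse, with replicate numbers beside the points and the mean ± SD of each group (n = 4). Fasn is the 1 gene whose groups do not overlap, and AF1 peptide replicate 1 has the lowest count of all 8 mice in 9 of the 10 genes.

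Genes were compared with each other per kilobase of exonic length. This length joins the exons of every annotated transcript of a gene, 5279 bases for Acly, 10163 for Acss2 and 17074 for Acaca. It can exceed the length of the transcript present in liver, which was not measured, and then lowers the value per kilobase. In control livers the mean normalized count per kilobase was 106872 for Scd1, 15873 for Thrsp, 3850 for Fasn, 2437 for Me1, 2329 for Elovl6, 1421 for Acly, 472 for Acss2, 445 for Acacb, 410 for Scd2 and 403 for Acaca. The ranges of control mice did not overlap between Scd1 and Thrsp, Thrsp and Fasn, Fasn and Me1, or Acly and Acss2. Other neighbours in this order overlapped and cannot be ranked, and the order of the rest holds for these lengths only. Scd1 had the 12th highest mean count of all genes in the table. It supplied 72.0 to 82.1% of the reads of the 10 genes in the 8 mice, so a sum over the 10 is mostly Scd1. That sum took 2.13, 1.92, 1.74 and 1.56% of all reads in control replicates 1 to 4, and 0.780, 1.5, 1.64 and 1.5% in AF1 peptide replicates 1 to 4. By this share, 3 of the 4 treated mice lay under the whole control range. All reads include the mitochondrial ones, which made up 34.3 to 37.8% in AF1 peptide replicates 2 to 4. Control replicate 4, the lowest control mouse by this share, had 22.4%. By normalized count, the Scd1 values of AF1 peptide replicates 2 to 4 lay within the control range.

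Promoter sequence is shown for 4 of the genes, to set Fasn, which was called lower, beside Thrsp, which had the smallest change, and beside Me1 and Acss2, which over the 8 mice varied most closely with the rest of the group. Each is the 250 bases before the gene's start in the RefSeq table (build GRCm38.p6), on the gene's own strand. The capitals mark CCAAT or GGGCGG on either strand (ATTGG and CCGCCC on the other). These are the letters that the factors NF-Y and SP1 are known to bind, and both are known partners of SREBP-1c. The windows are chr11:120824548-120824797 (minus strand) for Fasn, chr7:97417551-97417800 (minus) for Thrsp, chr9:86695915-86696164 (minus) for Me1 and chr2:155517793-155518042 (plus) for Acss2.
Fasn: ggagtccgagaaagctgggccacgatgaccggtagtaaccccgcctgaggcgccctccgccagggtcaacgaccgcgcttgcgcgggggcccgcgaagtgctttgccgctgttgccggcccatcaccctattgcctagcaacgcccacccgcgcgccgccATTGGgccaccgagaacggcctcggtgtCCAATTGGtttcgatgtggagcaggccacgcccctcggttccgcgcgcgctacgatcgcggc
Thrsp: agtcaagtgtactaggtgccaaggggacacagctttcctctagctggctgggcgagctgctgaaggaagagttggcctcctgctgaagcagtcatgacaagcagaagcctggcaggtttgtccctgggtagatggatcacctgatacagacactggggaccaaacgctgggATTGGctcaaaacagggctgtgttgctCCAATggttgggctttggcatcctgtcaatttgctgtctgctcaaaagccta
Me1: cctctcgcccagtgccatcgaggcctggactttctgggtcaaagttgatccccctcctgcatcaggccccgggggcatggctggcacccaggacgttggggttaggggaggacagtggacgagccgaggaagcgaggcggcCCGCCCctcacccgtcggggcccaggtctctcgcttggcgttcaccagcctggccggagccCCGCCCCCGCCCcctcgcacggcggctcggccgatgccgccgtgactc
Acss2: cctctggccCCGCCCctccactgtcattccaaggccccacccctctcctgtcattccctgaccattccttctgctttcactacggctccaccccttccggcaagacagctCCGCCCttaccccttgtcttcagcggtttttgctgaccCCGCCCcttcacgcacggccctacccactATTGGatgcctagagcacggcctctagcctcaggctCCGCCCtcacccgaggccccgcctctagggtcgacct

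Fasn held 3 CCAAT matches, whose first bases lay 59, 62 and 90 bases upstream, the nearer pair overlapping as the palindrome in its sequence. Thrsp held 2, at 52 and 79 bases. Me1 held 3 GGGCGG matches and no CCAAT in this window, and Acss2 held 4 GGGCGG and 1 CCAAT. Of the 10 genes, 8 matched the table, with 9 windows because Me1 has 2 starts. CCAAT was in 5 of these 9 windows and in 33.8% of all 32851 windows of that length, and GGGCGG was in 3 of 9 and in 32.7%. The E-box CACGTG, in 6.02% of all windows, and TCACNCC, the core of a sterol regulatory element, in 13.4%, were in 0 of the 9. A match in these letters is not a bound site, and a gene that was called lower and one that was not both carried CCAAT.

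Acly, ATP citrate lyase, supplies most of the cytosolic acetyl-CoA. It had normalized counts of 6584, 6818, 7341 and 9272 in control replicates 1 to 4 and 5672, 6351, 7531 and 5774 in AF1 peptide replicates 1 to 4. Here 3 AF1 peptide-treated mice lay below every control mouse, and replicate 3 lay within the control range. The means were 7504 ± 1221 and 6332 ± 853 (SD, n = 4 each). The log2 fold change was -0.24 (SE 0.14, 95% interval -0.55 to 0.07, limma adjusted p = 0.772, exact permutation p = 0.143). Acly did not pass the test, and without AF1 peptide replicate 1 its value was -0.19. Of all 10 genes, Acly followed the others least closely, with a Pearson r of 0.29 to the mean of the other 9 over the 8 mice, and control replicate 4, which was low in most of the genes, had its highest count.

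Acss2, the acetate-using acetyl-CoA synthetase, had counts of 5282, 5330, 4571 and 4019 in control and 3007, 4352, 4455 and 4047 in AF1 peptide-treated mice. AF1 peptide replicate 1 was the lowest, and the other 3 lay within the control range. The means were 4801 ± 626 and 3965 ± 662, a log2 fold change of -0.28 (SE 0.15, 95% interval -0.61 to 0.04, limma adjusted p = 0.763, exact permutation p = 0.143) that was -0.16 without AF1 peptide replicate 1. Acss2 overlaps Acss2os on the opposite strand, and whether counting used the strand is not stated. The counts of Acss2os, 1.87 to 10.05, were at most 0.250% of those of Acss2. Gss and Ggt7 also overlap it on the opposite strand. Gss had 1514 to 2380 counts, 34.1 to 57.4% of those of Acss2, and Ggt7 14.6 to 28.8 counts.

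The 2 acetyl-CoA carboxylases make malonyl-CoA in different places. ACACA, in the cytosol, feeds synthesis, and ACACB, at the mitochondrial surface, makes the malonyl-CoA that restrains fatty acid import for oxidation. Acaca had counts of 7319, 7226, 6593 and 6380 in control and 3275, 5569, 7702 and 5543 in AF1 peptide-treated mice. The control mice lay close together, 3 treated mice were below all of them, and treated replicate 3 was above all of them. The means were 6879 ± 464 and 5522 ± 1807, and the log2 fold change was -0.38 (SE 0.21, 95% interval -0.85 to 0.10, limma adjusted p = 0.767, exact permutation p = 0.2). It was -0.15 without AF1 peptide replicate 1 and -0.56 without AF1 peptide replicate 3, where its limma p value of 0.0136 passed the threshold. The value of Acaca thus moved most with 2 treated mice, 1 low and 1 high.

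Acacb had counts of 3784, 3515, 5060 and 4795 in control and 2145, 4886, 6287 and 3474 in AF1 peptide-treated mice. The treated mice reached both below and above the control range. The means of 4288 ± 754 and 4198 ± 1787 gave a log2 fold change of -0.12 (SE 0.28, 95% interval -0.75 to 0.51, limma adjusted p = 0.937, exact permutation p = 0.771). The sign turned, to 0.16, when AF1 peptide replicate 1 was left out. Over the 7 other mice Acacb ran against the other 9 genes, with r = -0.37 to their mean, against 0.59 over all 8. The ratio of Acaca to Acacb counts was 1.3 to 2.06 in control and 1.14 to 1.6 in AF1 peptide-treated mice.

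Acaca shares sequence with another gene of the table. In a transcript annotation (GENCODE M21), 30.4% of its 50-base words also occur in other genes, mostly in Gm5182 (29.2%), so its counts carry that uncertainty. Gm5182 had 318 to 743 normalized counts, 8.23 to 10.5% of those of Acaca, and was itself called lower (log2 fold change -0.51). Of the words of Me1, 28.3% are shared, mostly with Gm7049 (21.1%), which had 5.63 to 8.68% of its counts. Fasn, Acly and Acacb share none (0%).

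Fasn encodes the multi-domain enzyme that builds palmitate. Its counts were 42323, 44932, 41616 and 39709 in control and 20625, 34726, 32875 and 36334 in AF1 peptide-treated mice. All 4 treated mice lay below all 4 control mice, which happened in 1.85% of the genes tested and in 1 of these 10. The control mice were close to each other, while AF1 peptide replicate 1 had 48.9% of the control mean and the other 3 treated mice together 82.2%. The means were 42145 ± 2161 and 31140 ± 7151 (SD, n = 4 each), 26.1% lower with AF1 peptide. The log2 fold change was -0.47 (SE 0.19, 95% interval -0.89 to -0.04, limma adjusted p = 0.763) with an unadjusted limma p value of 0.0338. An exact permutation test of the log2 values gave p = 0.0286, the smallest that 4 mice against 4 allow. The exact tests of the 10 genes are two-sided and were not adjusted for their number.

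The call of Fasn turned on single mice although the groups stayed apart. With 1 mouse left out in turn its log2 fold change was -0.55 to -0.28 and its limma p value was 0.026 to 0.0755, under 0.05 in 5 of 8 fits. Without AF1 peptide replicate 1 it was -0.28 with a p value of 0.0497, which is less than a 1.3-fold change. Without control replicate 1, 2 or 3 it was -0.47, -0.44 and -0.47, and p was above the threshold, as it was with each gene's own variance. The ratio of Fasn to Acaca counts was 5.78 to 6.31 in control mice and 6.30, 6.24, 4.27 and 6.55 in AF1 peptide replicates 1 to 4. Treated replicate 3, with the highest Acaca, had the lowest ratio of the 8 mice.

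**Figure D2:**
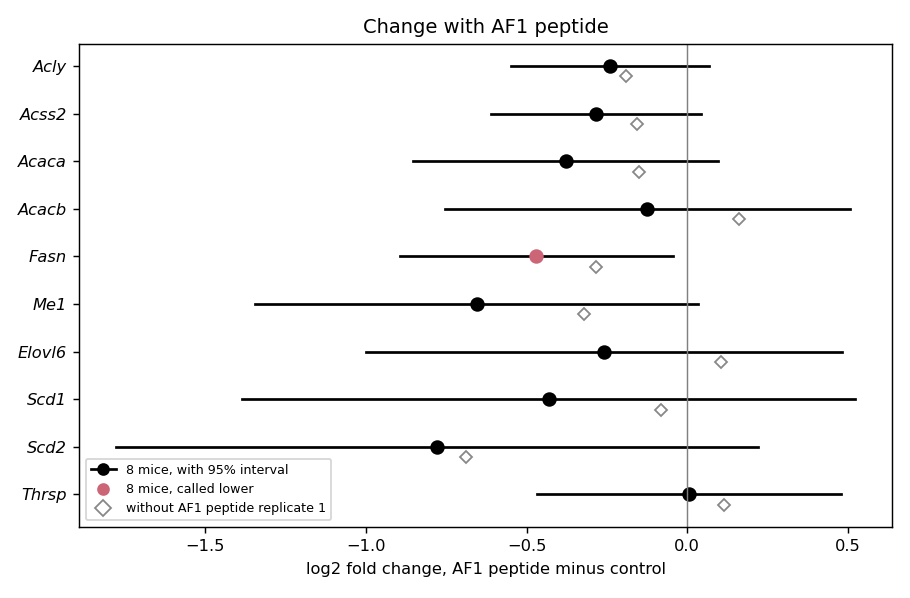
Log2 fold change (AF1 peptide minus control, log2(normalized count + 1) scale) of each gene with its 95% limma interval over 8 mice, and open diamonds for the value without AF1 peptide replicate 1. The interval of Fasn, -0.89 to -0.04, is the 1 that does not reach 0. All 10 diamonds lie to the right of their 8-mouse values, and those of Acacb and Elovl6 cross 0, to 0.16 and 0.10.

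Me1, the cytosolic malic enzyme, makes part of the NADPH that FASN consumes. Its counts were 11195, 12009, 7370 and 6936 in control and 2871, 7048, 7089 and 7772 in AF1 peptide-treated mice. Control mice fell into a high pair (replicates 1 and 2) and a low pair, and the 3 treated mice other than replicate 1 were level with the low pair. The means of 9377 ± 2596 and 6195 ± 2241 gave a log2 fold change of -0.66 (SE 0.31, 95% interval -1.35 to 0.04, limma adjusted p = 0.763, exact permutation p = 0.2). AF1 peptide replicate 1 had 30.6% of the control mean, the lowest share it reached in the 10 genes, and without it the value was -0.32. Me1 did not pass the test here, but did with no filter on low counts, with equal totals, with DESeq2, and without control replicate 4 or AF1 peptide replicate 4.

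Elovl6, the elongase of palmitate, had counts of 17725, 16925, 15695 and 9554 in control and 5733, 14964, 17654 and 14537 in AF1 peptide-treated mice. Each group held 3 mice near the same level and 1 low mouse, control replicate 4 and AF1 peptide replicate 1. The means of 14975 ± 3709 and 13222 ± 5180 differed by less than the spread between mice (log2 fold change -0.26, SE 0.33, 95% interval -1.0 to 0.48, limma adjusted p = 0.879, exact permutation p = 0.514). Leaving out AF1 peptide replicate 1 gave 0.10.

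Scd1 is the main stearoyl-CoA desaturase of liver and makes oleate for storage as triglyceride. Its counts were 649145, 530090, 542882 and 369162 in control and 183948, 503418, 479802 and 470852 in AF1 peptide-treated mice. The treated mice other than replicate 1 lay close together, within the control range, and replicate 1 had 35.2% of the control mean. The means of 522820 ± 115505 and 409505 ± 150997 gave a log2 fold change of -0.43 (SE 0.43, 95% interval -1.38 to 0.52, limma adjusted p = 0.849, exact permutation p = 0.343), which was -0.08 without that mouse. The fold change of Scd1 over 8 mice was thus close to that of Fasn, with a standard error of 0.43 against 0.19.

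Scd2 is a desaturase of the same family, known mainly from brain and other tissues. Its counts were 2156, 4911, 948 and 951 in control and 849, 1218, 1213 and 879 in AF1 peptide-treated mice. Control replicates 1 and 2 were high, and the other 2 control mice were level with the treated mice. The means of 2242 ± 1868 and 1040 ± 203 gave the largest log2 fold change of the 10 genes, -0.78, and also the largest error (SE 0.45, 95% interval -1.78 to 0.22, limma adjusted p = 0.773, exact permutation p = 0.286). It was -0.28 without control replicate 2, and -0.69 without AF1 peptide replicate 1. Of the 50-base words of Scd2, 3.97% also occur in Scd1, Scd3 or Scd4, and Scd1 had 108 to 573 times the counts of Scd2 in these mice, so reads assigned across the family could reach Scd2.

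Thrsp encodes a small nuclear protein, induced by thyroid hormone and carbohydrate, that is known to accompany lipogenesis. Its counts were 44881, 36204, 30772 and 27128 in control and 27289, 46381, 30066 and 36133 in AF1 peptide-treated mice. The groups covered almost the same range, and Thrsp was the 1 gene of the 10 in which AF1 peptide replicate 1 was not the lowest of all mice. The means of 34746 ± 7717 and 34967 ± 8458 gave a log2 fold change of 0.00 (SE 0.21, 95% interval -0.47 to 0.48, limma adjusted p = 0.997, exact permutation p = 0.943).

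**Figure D3:**
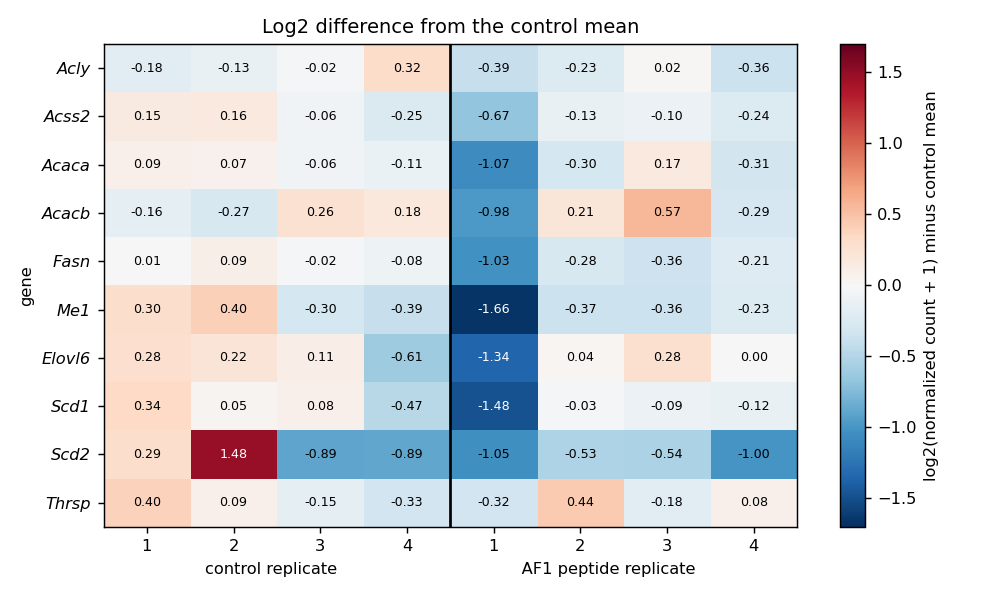
Log2 difference of each gene (rows) in each mouse (columns) from the control mean, log2(normalized count + 1) scale, blue for lower and red for higher. The column of AF1 peptide replicate 1 is the bluest, from -1.66 for Me1 to -0.32 for Thrsp. For Scd2, control replicate 2 lies at 1.48 and control replicates 3 and 4 at -0.89.

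Across the 10 genes, the median difference from the control mean on the log2 scale was 0.22, 0.09, -0.04 and -0.29 in control replicates 1 to 4, and -1.04, -0.18, -0.10 and -0.23 in AF1 peptide replicates 1 to 4. The last 3 treated mice lay within the control range by this measure. AF1 peptide replicate 1 was the lowest of all 8 mice in 9 of the 10 genes, and over all genes tested it was the lowest in 23.4% and the highest in 25.9%. Control replicate 4 was the lowest of its group in 7 of the 10. The 45 pairs of these genes had a median Pearson correlation over the 8 mice of 0.60 (-0.39 to 0.96), with 29 above 0.5. Without AF1 peptide replicate 1 the median was 0.36 (-0.75 to 0.90), with 14 above 0.5 and 14 below 0. These are descriptions over 8 or 7 libraries that share their scaling between genes. Against the mean of the other 9 genes, Acss2 had r = 0.96 over 8 mice and 0.98 over 7, and Me1 0.95 and 0.76.

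The genes whose levels ran closest to the mean of the 10 over the 8 mice, among 10739 others, were Gm39079 (r = 0.99), Daglb (0.98), Cln8 (0.98), Cs (0.98) and Tubb2a (0.98). Over the 7 mice without AF1 peptide replicate 1 they were Fam160a1 (r = 0.99), Gpt2 (0.96), Mrpl24 (0.96), Rabif (0.96) and Gm39079 (0.94). Gm39079 was on both lists. Cs encodes citrate synthase, which makes the citrate that ACLY cleaves. It had 6475, 6276, 6112 and 4952 counts in control and 3268, 5689, 5709 and 5471 in AF1 peptide-treated mice.

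Around these enzymes, 86 other genes of the pathway were listed by role, and 81 were tested. By the same rule 5 of them were called lower and none higher (0 genes), beside 1.9% and 1.79% of all genes. With AF1 peptide replicate 1 left out, 6 were called lower and 1 higher (Acss1, a paralogue of Acss2, at 1.01 from counts of 8.62 and 14.6 over 8 mice), beside 3.07% and 2.86% of all genes. Elovl2 and Insig2 were the 2 called lower in both. The others called lower without AF1 peptide replicate 1 were Aasdhppt, Mlycd, Mdh1 (-0.43) and Mlx (-0.44). Mlycd, Mdh1 and Mlx were named after their values were seen. In all, 55 had a log2 fold change below 0 and 26 above, with a median of -0.07. Adjusted limma p values of the genes named here were 0.763 or more. Carbon supply covers the citrate shuttle, pyruvate entry and related steps. Of its 14 genes, 11 had a value below 0 (median -0.22, and -0.16 without AF1 peptide replicate 1), and Dlat, a core subunit of pyruvate dehydrogenase, was called lower (1188 ± 146 against 916 ± 156, log2 fold change -0.38, and -0.27 without that mouse). Pcx, pyruvate carboxylase, did not overlap between groups and passed the p threshold, but changed by less than 1.3-fold (13254 ± 762 against 10873 ± 736, -0.29).

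Of the 9 tested genes of NADPH supply, none was called (0 genes), with 7 below 0 and a median of -0.24, which was -0.05 without AF1 peptide replicate 1. Pgd, of the pentose phosphate pathway, had -0.40 and Rpe -0.29, neither past the p threshold, and without that mouse they had -0.13 and -0.28. The paralogues of the enzymes held 3 of the 5 calls among 9 tested genes, with 7 below 0 and a median of -0.40. That median was -0.03 without AF1 peptide replicate 1. Scd3, a close relative of Scd1, had 144 ± 64.1 counts in control and 80.2 ± 23.7 in AF1 peptide-treated mice (-0.76). Elovl5 and Elovl2, which elongate polyunsaturated fatty acids, were also lower. Elovl5 had 27704 ± 2207 and 18198 ± 7509 counts (-0.73), and Elovl2 3785 ± 936 and 2745 ± 254 (-0.44). Without AF1 peptide replicate 1, Scd3 had -0.61 and no longer passed the p threshold, Elovl5 had -0.37, less than 1.3-fold, and Elovl2 had -0.46 and was still called.

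No gene was called among the 15 that modify the enzymes or set malonyl-CoA (0 genes, median -0.06, and -0.10 without AF1 peptide replicate 1) or among the 10 partners of elongation and desaturation (0 genes, median -0.13, and -0.05 without it). In the first, Aasdhppt, which attaches the prosthetic group of FASN, had -0.37, and Prkaa2, a catalytic subunit of AMPK, the kinase that inhibits acetyl-CoA carboxylase, had -0.29. Both passed the p threshold and changed by less than 1.3-fold. With AF1 peptide replicate 1 left out, Aasdhppt had -0.43 and was called, Mlycd, malonyl-CoA decarboxylase, had -0.50 and was called (from -0.38 over 8 mice), and Prkaa2 had -0.28 and no longer passed the p threshold. In the second, Hsd17b12, the reductase of the elongation cycle, had -0.40 and Cyb5b -0.19, neither past the p threshold, and without that mouse they had -0.18 and -0.26.

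**Figure D4:**
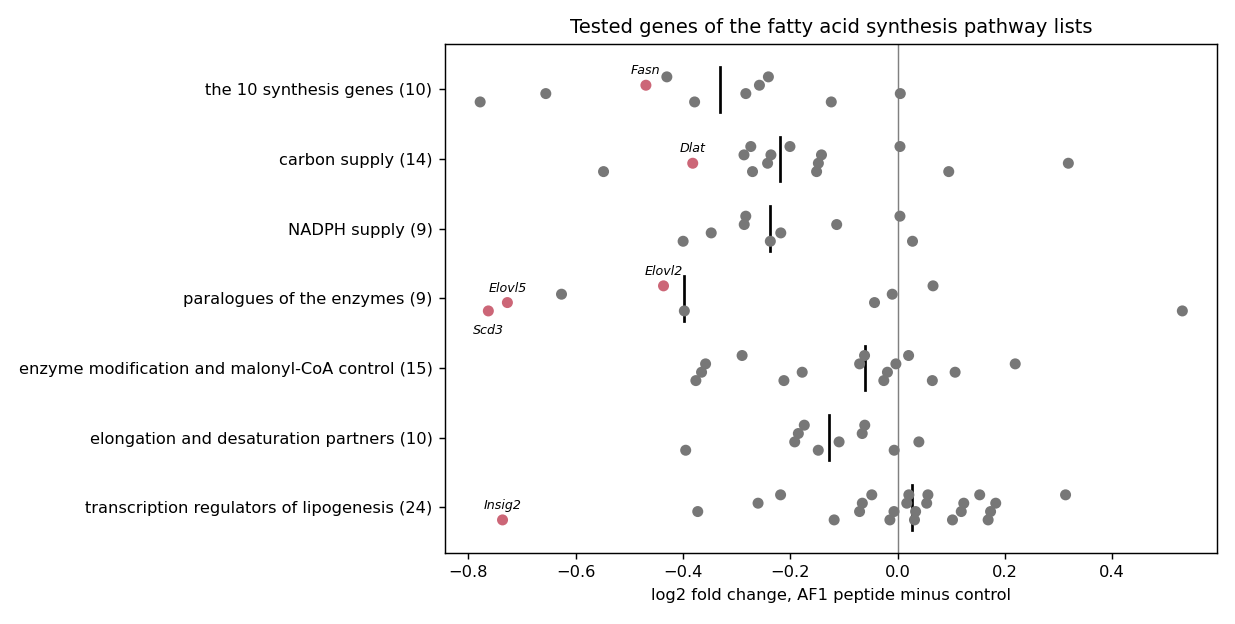
Log2 fold change (AF1 peptide minus control) of each tested gene of the synthesis genes and the 6 pathway lists, with the number tested in brackets and a bar at the median. Red points with names are the genes called lower, Fasn and 5 others, and no gene was called higher.

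The 24 transcription regulators of lipogenesis had 10 log2 fold changes below 0 with a median of 0.03, which was 0.02 without AF1 peptide replicate 1. Insig2, which holds the SREBP precursor in the endoplasmic reticulum, was called lower (4339 ± 926 against 2725 ± 1039, -0.74, and -0.46 without that mouse). Nr1i2, the xenobiotic receptor PXR, was higher without overlap and past the p threshold, by less than 1.3-fold (3781 ± 452 against 4680 ± 334, 0.31, and 0.27 without that mouse). Srebf1, Mlxipl and Nr1h3 encode SREBP-1, ChREBP and LXRα, well known activators of these genes. None passed the p threshold, and they were picked by that role after their values were seen. Srebf1 had 7001 ± 1429 and 6473 ± 1660 counts (-0.12), and its highest count of all mice, 8938, was in AF1 peptide replicate 1, where 9 of the 10 genes were lowest. Without that mouse Srebf1 had -0.28, also short of the p threshold. Mlxipl had 17359 ± 2098 and 19722 ± 2642 (0.18), and Nr1h3 2398 ± 78.7 and 2723 ± 397 (0.17, and 0.07 without that mouse). The groups of Nr1h3 did not overlap, by a narrow gap, at 2298 to 2474 counts in control and 2485 to 3316 in AF1 peptide-treated mice. Nfyc, of the same list and named after its value was seen, was also higher without overlap (0.17), short of the p threshold. The share of all genes that were higher without overlap was not counted here.

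Transcripts of the feeding state moved with the synthesis genes in AF1 peptide replicate 1. Its median log2 difference from the control mean was -0.90 over 7 feeding-induced liver genes, 0.52 over 14 fasting-induced genes and 0.47 over 15 core clock genes. In the other 7 mice these medians lay between -0.21 and 0.13. The genes of a list did not all move alike. AF1 peptide replicate 1 was the highest of the 8 mice in 8 of the 15 clock genes and the lowest in 3. It was the highest in 7 and the lowest in 4 of the 14 fasting-induced genes. Among the 7 feeding-induced genes it was the lowest in 5 and the highest in 1. The summed counts were 31603 against 49005 to 59057 for the feeding-induced genes, and 296680 against 151111 to 226832 for the fasting-induced genes. Pnpla3, a lipid droplet protein induced by feeding, had 15.9 counts in this mouse and 322 to 1090 in the others. Pck1, of gluconeogenesis, had 77425 against 20589 to 47452. Igfbp1 had 1180 against 119 to 545, and Irs2 596 against 172 to 220. These genes other than Pnpla3 and Irs2 were picked after their values were seen. The part of feeding state or hour of collection in the result was not tested.

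Between the groups, 1 of the 7 feeding-induced genes was called lower, Gpam, the first acyltransferase of triglyceride synthesis, whose groups did not overlap (13992 ± 1329 against 9976 ± 3358, log2 fold change -0.57). With AF1 peptide replicate 1 left out it had -0.26, less than 1.3-fold. None of the 14 fasting-induced genes was called (0 genes), and Ppargc1a and Irs2, which had the smallest p values among them, had log2 fold changes of 0.46. With AF1 peptide replicate 1 left out they had 0.15 and 0.07, and 2 other fasting-induced genes, G6pc and Tat, named after their values were seen, were called lower (-0.63 and -0.74). Of the 15 core clock genes, Per2 was called higher (0.39), and Tef, at 0.32, passed the p threshold by less than 1.3-fold. With AF1 peptide replicate 1 left out Per2 had 0.37, less than 1.3-fold, Tef had 0.20 and no longer passed the p threshold, and Per1, named after its value was seen, was called lower (-0.42, from -0.07 over 8 mice).

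**Figure D5:**
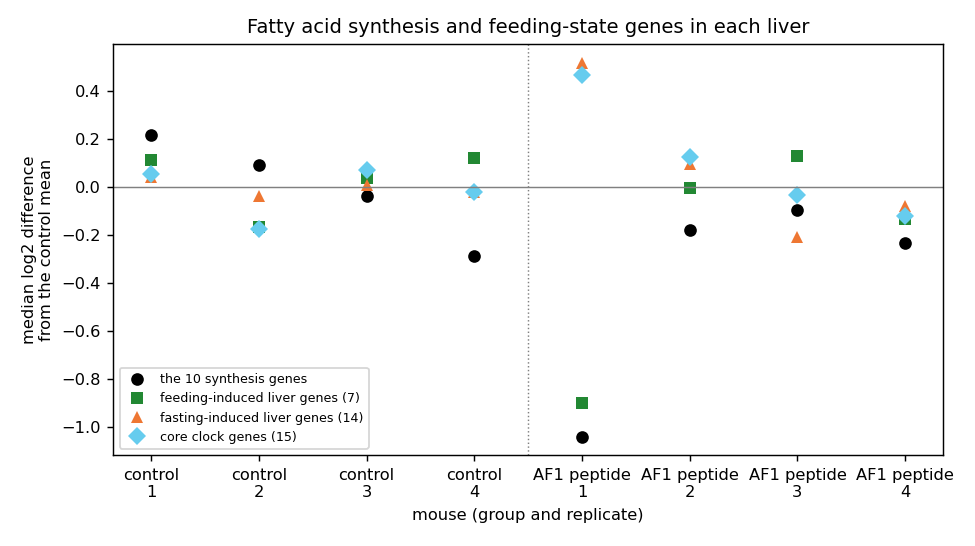
Median log2 difference from the control mean, per mouse, over the 10 synthesis genes, 7 feeding-induced, 14 fasting-induced and 15 core clock genes. In AF1 peptide replicate 1 the synthesis and feeding-induced genes lie at -1.04 and -0.90 and the fasting-induced and clock genes at 0.52 and 0.47, and in the other 7 mice all 4 medians lie between -0.29 and 0.22.

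Markers of other cell types were measured beside the synthesis genes. In bulk liver, fewer cells of a type and less RNA per cell cannot be told apart. Adipocyte markers, of which 5 were tested, had a median log2 difference from the control mean of -2.73 in AF1 peptide replicate 1, and all 5 had a group log2 fold change below 0 (median -0.98, and -0.19 without this mouse). Their summed count was 26384 in that mouse, 31468 to 55495 in the other treated mice and 29064 to 55688 in control mice. Car3, which liver is also known to express, made up 25646 of the 26384. Cidea and Cidec, also known from fatty liver, had 38.3 and 243 counts in that mouse. Adipoq, Lep and Plin1 were not analysed here, and Retn and Adig were under the filter on low counts, so the list does not measure adipocytes as such. Kupffer cell and macrophage markers, 9 genes, summed to 2805 in AF1 peptide replicate 1, 6699 to 7323 in the other treated mice and 6160 to 7704 in control mice, and Adgre1, named after its value was seen, was called lower (68.4 ± 18.7 against 42.9 ± 10.7, -0.66). With AF1 peptide replicate 1 left out Adgre1 had -0.45 and was not called, and the median of the list went from -0.28 to 0.05. The part of these cells in the synthesis genes' values was not tested.

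For the other marker lists the summed counts of the groups overlapped, and Dcn, of the stellate cell list and named after its value was seen, was the 1 gene called (-0.42, and -0.43 without AF1 peptide replicate 1). Most of that list went the other way. Of its 9 genes, 3 had a log2 fold change below 0 and 6 above, with a median of 0.04, and 0.17 without AF1 peptide replicate 1. Stellate cell markers (9 genes) summed to 10416 to 12879 in control and 9201 to 16403 in AF1 peptide-treated mice, sinusoidal endothelial markers (9) to 6137 to 7199 and 5768 to 6818, biliary markers (7) to 1208 to 1834 and 816 to 2319, and lymphocyte markers (9) to 122 to 174 and 113 to 195. Red blood cell markers (7) summed to 34152 to 123405 and 27116 to 51938, and pancreatic acinar markers, of which 2 of 10 were analysed, to 200.2 to 258 and 192 to 225.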

How the data were processed

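Liver RNA of 8 male db/db mice, 4 control and 4 AF1 peptide-treated, was sequenced after TRIzol extraction and a stranded mRNA library kit. Per the labels and the paper's methods, Trim Galore 0.6.7, HISAT2, SAMtools 1.17 and GenomicAlignments took the reads from trimming to counts per gene, and the submitters' processing notes name the build mm39. The annotation, the strand setting and the rule for multi-mapping reads are not given in the sources used here. The deposited values are normalized counts, a signal equal to reads divided by 1 size factor per library. Median-of-ratios factors computed from the recovered reads were the same. All 172256 values (100%) came out as whole reads, within 0.001. No replicates were pooled. Groups came from the labels, which number the mice as biological replicates.

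The log2(normalized count + 1) of 15989 genes with a mean of at least 10 was compared with limma 3.58.1 (R 4.3.3, variance trend, two-sided), with Benjamini-Hochberg adjustment over all genes tested. Fold changes on this scale understate changes of low counts. edgeR 4.0.16 and DESeq2 1.42.0 on recovered reads were alternatives, as were other pseudocounts, filters, scalings, a replicate block and leaving out each mouse. On simulated counts for this comparison, over 15987 genes tested, an unadjusted limma p value under 0.05 was reached by 93.88% of 196 genes changed 2-fold and by 4.946% of unchanged genes. Each simulated gene was drawn independently, with no mouse that shifts many genes together, and no change under 2-fold was simulated. These percentages therefore do not describe the 10 genes, whose changes were smaller. Replicates of a group differed by a chi-square of 16.1 to 344 per degree of freedom, so none was a duplicate. The p values measure the spread between these mice.

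The 10 genes, the pathway, state and marker lists and the motifs were chosen with earlier results of these data known. The text names the 10 genes, every called gene of each pathway and state list (with the smallest p values up to 2 where fewer were called), the 5 genes most alike over 8 and over 7 mice, and others where it says so. Promoters came from a RefSeq table of GRCm38.p6, matched by symbol, and shared 50-base words and exonic lengths from GENCODE M21. The replicate numbers are shared by the groups but stand for different mice.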

Additional observations from a re-analysis of the deposited data

Results flagged for a closer look

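A mouse far from the other 3 of its group was looked for in 100 sets of 4 values. Genes and summed levels were on the log2 scale, and percents of reads and the first principal component were untransformed. Dixon's ratio is the gap of that mouse to the nearest one over the range of the group. The ratio passed its 95% critical value in 12 sets, where chance gives about 5, and 9 of the 12 were AF1 peptide replicate 1. Among the synthesis genes it was the lowest of its group for Me1 (0.902) and Scd1 (0.934), and for the percent of reads in the 10 genes (0.83). It was also the lowest for Pgd (0.833), Gpam (0.873) and the summed levels of feeding-induced genes (0.836), Kupffer cell and macrophage markers (0.907) and red blood cell markers (0.915), and the highest on the first principal component (0.843).

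The other 3 were single mice elsewhere. AF1 peptide replicate 3 had the lowest summed level of carbon supply genes (0.85). Control replicate 1 had the highest summed level of fasting-induced genes (0.909), and control replicate 4 the highest of sinusoidal endothelial markers (0.929).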

How the results depend on the processing

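The 10 genes were recomputed under 20 alternatives, giving 200 values, of which 175 kept their direction and their side of an unadjusted p value of 0.05. Another 13 newly passed it, 4 no longer did (all Fasn) and 8 changed sign. The sign changes were Acacb and Elovl6 without AF1 peptide replicate 1 (0.16 and 0.10), and Thrsp, close to 0, which was -0.0025 with TMM, -0.086 with equal totals and between -0.14 and 0.14 with 1 mouse left out. Leave-one-out ranges were -0.35 to 0.16 for Acacb and -0.46 to 0.10 for Elovl6.

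Without a filter on low counts, 435 genes were called higher, 459 lower and 2 of the 10 genes lower (Fasn and Me1). With equal totals, 122 were higher, 602 lower, 3 of the 10 lower and 10 pathway genes lower. Without a fold threshold, 506 were higher, 484 lower and 10 pathway genes lower. limma without the trend called 3 pathway genes lower. With each gene's own variance, 197 genes, 0 of the 10 and 0 pathway genes were lower. edgeR called 2 of the 10 lower (Fasn and Scd2) and DESeq2 2 (Fasn and Me1). When single mice were left out, calls ran from 198 to 457 higher and from 173 to 491 lower, 0 to 3 of the 10 and 1 to 7 pathway genes were called lower, and 1 to 3 of the 10 were lower without overlap. The 3 called without control replicate 4 were Fasn, Me1 and Scd2, and the 0 came without AF1 peptide replicate 1 or control replicate 1 or 2. The 3 without overlap were Fasn, Acss2 and Scd1 without control replicate 4, and Fasn, Acly and Acaca without AF1 peptide replicate 3. The share of all genes without overlap was not counted with a mouse left out. Groups of 3 against 4 separate more easily, so these counts cannot be set beside the 1.85% of genes lower without overlap over all mice. The cause of the changes between settings was not tested.

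With a replicate block, 341 genes were higher and 392 lower, and 1 of the 10 genes (Fasn) was called. Mice with the same number correlated at 0.235, 0.0238, 0.216 and -0.064 in their deviations from the group means, so the numbers were not taken to pair mice, and not every mouse correlated best with its own number.

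Depth, 23031880 reads or more per mouse, left at least 667 reads for each of the 10 genes in each mouse. No lean mice, feeding state or protein levels were analysed here.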
